A study of Mus musculus with 8 samples.

Results

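The genes described here are 8 connexins, the subunits of gap junction channels, chosen by symbol: Gja1, Gja4, Gja5, Gjb1, Gjb2, Gjb5, Gjb6 and Gjc1. They are 8 of 52325 gene identifiers in the table, which also lists 12 other connexin genes. Transcripts were measured by RNA-seq in bulk endometrium, the uterine lining, cut by laser from frozen sections of 4 WT and 4 Thra1PV/+ female mice, all in metestrus. Thra1PV/+ mice carry a knocked-in PV mutation, a frameshift at the C-terminal end of thyroid hormone receptor alpha 1 that makes it dominant negative, in 1 allele of Thra. WT mice carry none, no further allele or agent is named for either genotype, and the age of these mice is not given in the sources used here. The libraries are as many as the mice, 4 of each genotype, but the sample labels do not name the mouse behind a library, so the p-values measure the spread between these libraries, taken as 1 per mouse.

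Connexins oligomerize into hemichannels, and hemichannels of neighbouring cells dock to form a channel that passes ions, second messengers and small metabolites. Which connexin a cell makes depends on its type. Gja1 is the main connexin of uterine stroma and muscle, Gjb1 and Gjb2 are connexins of simple epithelia, Gjb2, Gjb5 and Gjb6 are made in stratified squamous epithelium such as skin, Gja4 and Gja5 are vascular, and Gjc1 is found in smooth muscle and around vessels. In the rodent uterus, connexins of the stroma and the epithelium are known to change under ovarian steroids and at implantation. In bulk tissue, fewer cells of a type and less RNA per cell cannot be told apart.

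Library totals ran from 48791883 to 59819099 counts. The targeted gene, Thra, had 80.1 ± 34.2 CPM (counts scaled to library size after TMM normalization, SD, n = 4) in Thra1PV/+ and 78.0 ± 33.7 CPM (SD, n = 4) in WT endometrium, and its counts do not tell the PV from the WT transcript, so they do not check the labels. Of marker lists, 12 of the 19 tested genes for squamous epithelium were called higher in Thra1PV/+, among them Krt5 (log2 fold change 7.43, adjusted p = 0.0268, edgeR), Krt14 (6.76, adjusted p = 0.0928), Col17a1 (7.17, adjusted p = 0.00113) and Ivl (at most 2 counts in a WT library, adjusted p = 0.00143). The summed level of that list was 3870 to 6700 CPM in Thra1PV/+ and 143 to 570 CPM in WT libraries, and Sprr1b, the listed gene that was not tested, had 0 CPM in Thra1PV/+. All 12 tested genes of smooth muscle had a negative log2 fold change, from -5.43 to -1.70, with 0 called (12 at an unadjusted p under 0.05), and their summed level was 202 to 858 CPM in Thra1PV/+ and 696 to 16700 CPM in WT. DESeq2 gave an adjusted p to 2 of these 12 genes and called 1 of them. WT library 1 stood apart there, with a mean log2 CPM of 9.29 against 4.47 to 5.68 in the other WT libraries. The simple epithelium list, which marks the labelled tissue with Krt8 and Krt18, was present in every library (2670 to 8180 CPM summed) and its 12 genes had a median log2 fold change of 0.11, with 0 called by edgeR or DESeq2 and 0 at an unadjusted p under 0.05.

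Gjb2 and Gja1 had the highest mean levels of the 8 connexins in both genotypes. On the deposited TPM scale, which corrects for transcript length and so permits comparison between genes, Gjb2 averaged 92.9 ± 28.9 TPM in Thra1PV/+ and 103 ± 92.0 TPM in WT (SD, n = 4 each), and Gja1 averaged 62.2 ± 12.9 and 40.8 ± 9.91 TPM. Gjc1 followed, at 9.88 ± 4.62 TPM in Thra1PV/+ and 19.0 ± 18.8 TPM in WT. Then came Gjb1 (3.37 ± 1.12 and 6.71 ± 4.88 TPM) and Gja4 (3.04 ± 0.765 and 5.45 ± 4.21 TPM). The lowest levels were those of Gja5 (0.701 ± 0.185 and 2.26 ± 1.59 TPM), Gjb6 (1.31 ± 0.699 and 0.350 ± 0.374 TPM) and Gjb5 (0.621 ± 0.145 and 0.264 ± 0.223 TPM). Most neighbours in this order overlapped between libraries. In WT endometrium 6 of the 7 neighbouring pairs did, and the exception was the step from Gja5 down to Gjb6. In Thra1PV/+ endometrium 5 of 7 overlapped, and the steps from Gja1 to Gjc1 and from Gjc1 to Gjb1 were clear of overlap. Gjb6 stood above Gja5 in each of the 4 Thra1PV/+ libraries and below it in each of the 4 WT libraries. Gjb2 was not the highest in every library by deposited TPM. It was below Gja1 in Thra1PV/+ library 3 and WT library 2, and below Gjc1 in WT library 1, at 37.9 against 47.2 TPM.

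**Figure D1:**
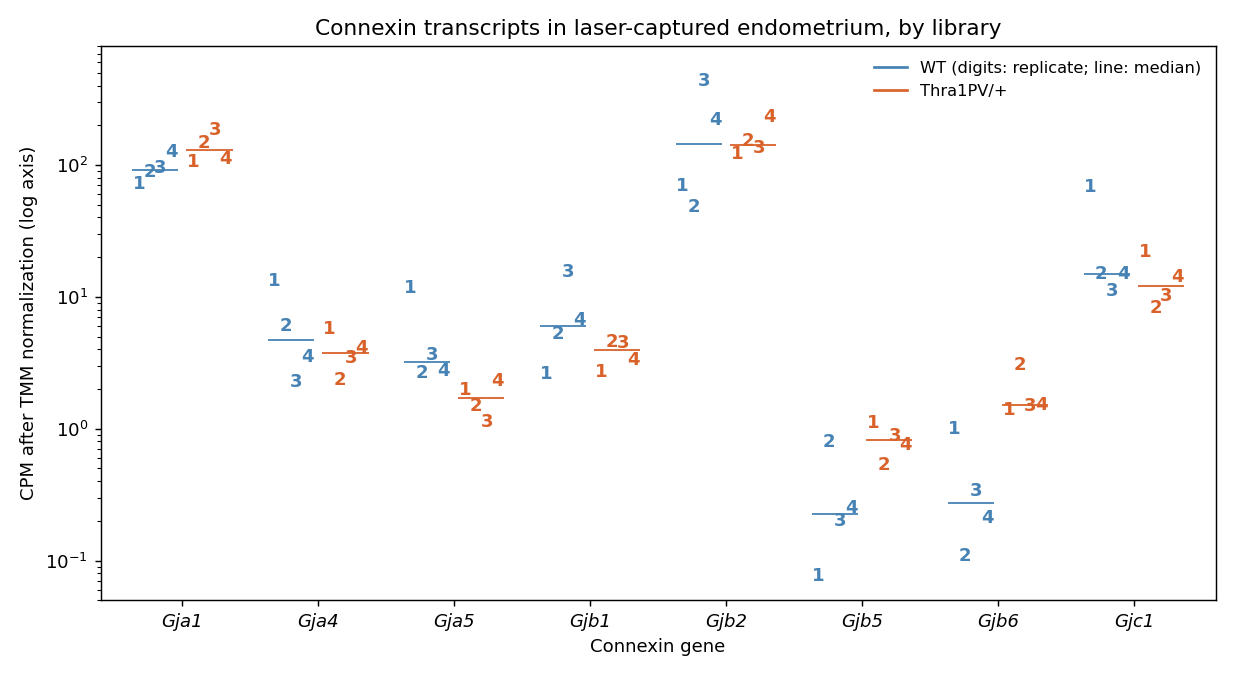
CPM after TMM normalization (log axis) of the 8 connexin genes in each library, WT in blue and Thra1PV/+ in orange, with digits for replicate numbers and lines for medians. Gjb6 lies higher and Gja5 lower in all Thra1PV/+ libraries than in any WT library, and the other 6 genes overlap.

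Gjb2 and Gja1 together held 84.4% to 90.8% of the summed connexin TPM in the Thra1PV/+ libraries. In WT the same share was 50.5%, 76.1%, 91.0% and 88.7% in libraries 1 to 4. The low value was that of WT library 1, in which Gjc1 took 35.1% where it took 2.74% to 11.4% in the other WT libraries and 3.71% to 10.4% in Thra1PV/+. Gja5 took 0.281% to 0.467% in Thra1PV/+ and 0.639% to 3.42% in WT, with no overlap. On the deposited TPM scale, the ratio of Gjb2 to Gja1 ranged from 0.698 in WT library 2 to 5.93 in WT library 3, and from 0.922 to 2.59 in Thra1PV/+. Bulk libraries do not show which cells made either transcript, so this ratio does not measure epithelium against stroma. These shares and ratios rest on transcript length. With counts divided by total exon length, which for Gja1 is 10257 bases over all its annotated transcripts, the mean share of Gja1 was 15.6% in Thra1PV/+ and 12.2% in WT, against 36.3% and 27.1% from the deposited TPM. Gjb2 was then above Gja1 in all 8 libraries, by 2.33-fold in WT library 2 to 19.6-fold in WT library 3 and by 3.12-fold to 8.87-fold in Thra1PV/+, so which of both was higher in WT library 2 and Thra1PV/+ library 3 depended on the length used.

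**Figure D2:**
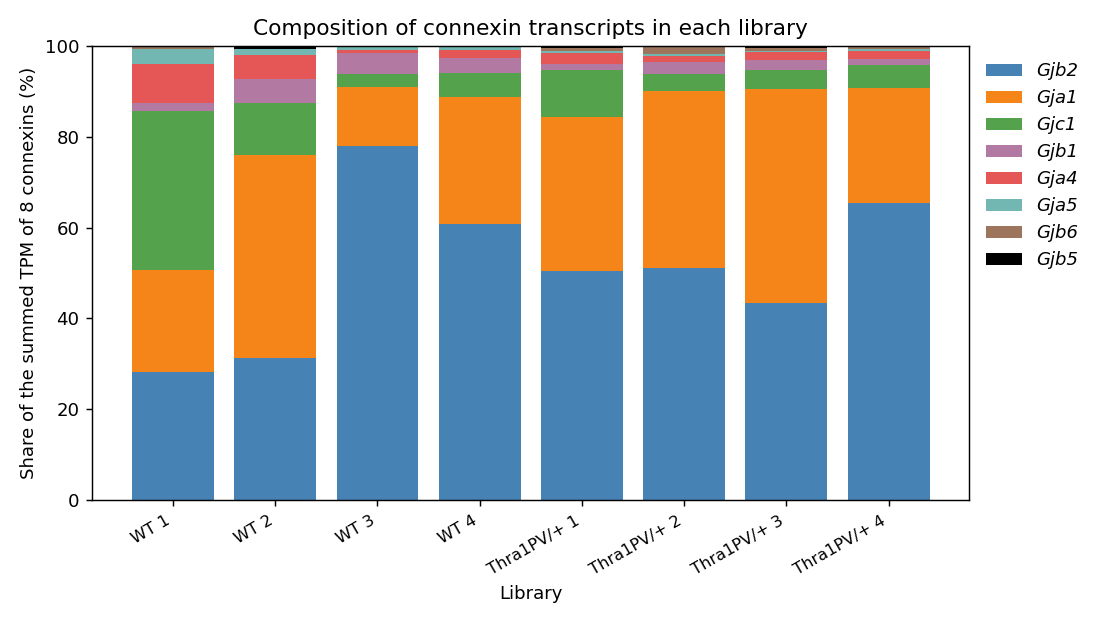
Share of each connexin gene (%) in the summed deposited TPM of the 8 genes, 1 bar per library. Gjb2 and Gja1 fill most of each bar, and WT library 1 has the largest part of Gjc1, at 35.1%.

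None of the 8 connexins passed the threshold between genotypes in edgeR. With edgeR's quasi-likelihood test, a call required at least a 2-fold change together with a Benjamini-Hochberg adjusted p no higher than 0.1 across all 18174 tested genes, which 0.990% of genes met. All 8 connexins had enough counts to be tested and 0 were called. At an unadjusted p under 0.05, 1 of 8 was higher in Thra1PV/+, Gjb6, where 5.05% of all tested genes were, and 1 of 8 was lower, Gja5, where 4.72% were. The same pair did not overlap between genotypes: 1 of 8 lay higher in all Thra1PV/+ libraries, against 3.55% of tested genes, and 1 of 8 lower, against 2.49%. DESeq2 called 1 of the 7 members to which it gave an adjusted p, Gjb6, where it called 3.58% of the genes to which it gave an adjusted p, and limma voom with sample quality weights called the same gene, where 1.71% of tested genes were called. Of the log2 fold changes 3 were positive and 5 negative, with a median of -0.47 beside -0.05 over all tested genes.

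**Figure D3:**
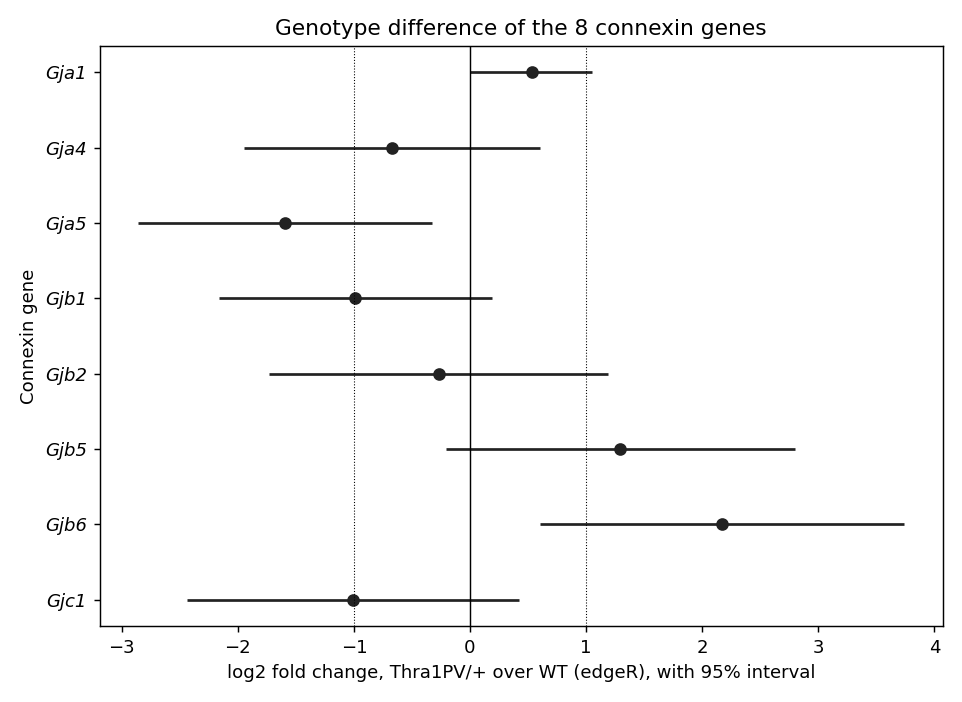
Log2 fold change of Thra1PV/+ over WT endometrium from edgeR with its 95% interval, for the 8 connexin genes; dotted lines mark a fold change of 2. The intervals of Gjb6 (0.60 to 3.74) and Gja5 (-2.86 to -0.33) lie clear of 0, and neither gene passed the adjusted threshold.

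Gjb2, Gjb6 and Gjb5 are the connexins of stratified squamous epithelium. Gjb2 and Gjb6 can join in the same channels in the inner ear and epidermis, and variants of either cause hearing loss and skin disease. Gjb2 (ENSMUSG00000046352.7) occupies chr14:57098600-57104702 of GRCm38, the build of all positions given here, on the minus strand, and Gjb6 (ENSMUSG00000040055.9) lies 18600 bases away on the same strand at chr14:57123303-57133611. Among these 8 genes Gjb2 had the highest mean TPM in both genotypes and Gjb6 was among the lowest: TPM of Gjb2 over Gjb6 was 42.3 to 818 in WT libraries and 35.3 to 133 in Thra1PV/+. The stretches shown are the 250 bases upstream of RefSeq starts, picked with the values of these genes known. They belong to Gjb6 and Gja5, whose genotypes did not overlap, in opposite directions, and to Gjb2, the neighbour of Gjb6. They come from the RefSeq promoter windows for GRCm38.p6, which matched 7 of the 8 members, and not Gjc1. Capitals mark matches, on either strand and with overlaps allowed, to TATAAA, to GGGCGG (bound by Sp factors), to CACCC (bound by Sp and Kruppel-like factors), to AGGTCA (the hexamer bound by nuclear receptors, thyroid hormone receptors among them) and to TGANTCA (bound by AP-1).
Gjb2, chr14:57104703-57104952, minus strand: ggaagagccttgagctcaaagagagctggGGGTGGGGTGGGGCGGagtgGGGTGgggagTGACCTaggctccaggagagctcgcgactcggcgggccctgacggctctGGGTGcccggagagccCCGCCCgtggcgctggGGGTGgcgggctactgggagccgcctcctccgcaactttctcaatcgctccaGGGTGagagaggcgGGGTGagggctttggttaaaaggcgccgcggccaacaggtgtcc
Gjb6, chr14:57133612-57133861, minus strand: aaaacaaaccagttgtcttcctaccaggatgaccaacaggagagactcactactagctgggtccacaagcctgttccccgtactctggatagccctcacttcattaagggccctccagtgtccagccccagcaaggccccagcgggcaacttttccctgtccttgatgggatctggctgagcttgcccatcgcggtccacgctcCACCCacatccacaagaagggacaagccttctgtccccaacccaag
Gja5, chr3:97032152-97032401, plus strand: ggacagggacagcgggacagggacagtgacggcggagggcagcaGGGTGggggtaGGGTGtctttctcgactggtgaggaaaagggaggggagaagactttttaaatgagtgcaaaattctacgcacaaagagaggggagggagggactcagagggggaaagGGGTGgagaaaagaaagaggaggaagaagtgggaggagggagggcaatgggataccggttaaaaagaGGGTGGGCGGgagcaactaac
The Gjb2 stretch held 7 matches to CACCC, 2 to GGGCGG and 1 to AGGTCA. The Gjb6 stretch held 1 match to CACCC, and the Gja5 stretch 4 to CACCC and 1 to GGGCGG. Of 32851 mouse windows of this length, 52.0% held CACCC, 32.7% GGGCGG, 14.0% AGGTCA, 12.4% TATAAA and 6.75% TGANTCA. The G and C content was 69.2% upstream of Gjb2, 56.8% upstream of Gjb6 and 56.4% upstream of Gja5, with a median of 52.4% over all windows.

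Gjb6 had the largest fitted fold change of the 8. Its counts were 75, 151, 73 and 87 in Thra1PV/+ libraries 1 to 4 and 52, 6, 17 and 10 in WT libraries 1 to 4, which is 1.38, 3.06, 1.49 and 1.52 CPM against 0.992, 0.108, 0.338 and 0.209 CPM. Every Thra1PV/+ library lay above every WT library, with WT library 1 close below and Thra1PV/+ library 2 far above. The log2 fold change was 2.17 (standard error, SE, 0.68, edgeR adjusted p = 0.341), a fold of 4.50, with an unadjusted p of 0.0125 in that edgeR fit and an exact permutation p of 0.0286, the smallest that 4 against 4 libraries allow. DESeq2 gave 2.20 with an adjusted p of 0.0336, and limma on log2(deposited TPM + 1), where the pseudocount is near the level of this gene, gave 0.77 with an adjusted p of 0.338. Without WT library 1, edgeR gave 3.13 with an adjusted p of 0.0886 and called the gene, where that fit called 0.901% of the genes it tested. WT library 1 had the most Gjb6 of the WT libraries and the lowest mean log2 CPM on the squamous list, -0.59 against 1.34 to 2.36 in the other WT libraries. The counts of Gjb6 are low, so counting error adds to the spread between libraries.

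Gjb2 gave no genotype difference larger than the spread of its libraries. It had 122, 151, 134 and 233 CPM in Thra1PV/+ libraries 1 to 4 and 69.8, 48.2, 434 and 220 CPM in WT libraries 1 to 4. The WT libraries spanned a 9.02-fold range on both sides of the Thra1PV/+ libraries, which spanned 1.91-fold. Its log2 fold change was -0.27 (SE 0.64, 95% interval -1.73 to 1.19, edgeR adjusted p = 0.936), and without WT library 3 it was 0.53 (adjusted p = 0.719). Relative to the mean log2 CPM of the simple epithelium list, Gjb2 stood at -1.21 ± 0.56 in Thra1PV/+ and -1.18 ± 0.79 in WT (SD, n = 4 each), a difference of -0.03 (exact permutation test, p = 0.943). Relative to the squamous list it was 0.70 ± 0.65 in Thra1PV/+ and 5.93 ± 1.13 in WT, a difference of -5.23 (exact permutation test, p = 0.0286). The mean of that list was itself 6.57 in Thra1PV/+ and 1.13 in WT, on the log2 CPM scale.

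Gjb5 (ENSMUSG00000042357.2), a connexin of stratified and placental epithelium, lies at chr4:127354809-127358181. It had 60, 26, 43 and 43 counts in Thra1PV/+ libraries 1 to 4 and 4, 44, 10 and 12 counts in WT libraries 1 to 4. WT library 2, at 0.794 CPM, stood within the Thra1PV/+ range of 0.528 to 1.10 CPM, and the other WT libraries lay below it at 0.0763 to 0.251 CPM. For Gjb5 the log2 fold change was 1.29 (SE 0.66, edgeR adjusted p = 0.584; exact permutation p = 0.0857), and without WT library 2 it was 2.23 (adjusted p = 0.227, edgeR). Relative to the squamous list, Gjb6 and Gjb5 had lower values in all Thra1PV/+ than in any WT library. Gjb6 stood at -5.72 ± 0.37 in Thra1PV/+ and -2.67 ± 2.22 in WT, a log2 difference of -3.05, which was -1.95 without WT library 1. Gjb5 stood at -6.84 ± 0.89 and -2.94 ± 1.19, a log2 difference of -3.90. Both differences had an exact permutation p of 0.0286. They contain the difference of the list itself, whose mean log2 CPM was 6.57 in Thra1PV/+ and 1.13 in WT. They therefore do not measure a loss of either transcript, and the mean CPM of both genes was higher in Thra1PV/+. How much of the Gjb6 and Gjb5 differences in CPM moved with that list was not tested.

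Gjb1 (ENSMUSG00000047797.14, chrX:101376378-101385629) is a connexin of simple secretory and glandular epithelia, liver above all. It had 2.68, 4.57, 4.50 and 3.34 CPM in Thra1PV/+ libraries 1 to 4 and 2.58, 5.22, 15.4 and 6.72 CPM in WT libraries 1 to 4. WT library 1 was the lowest of the 8 libraries, the other WT libraries were above all Thra1PV/+ libraries, and the genotypes overlapped through that library. Gjb1 had a log2 fold change of -0.99 (SE 0.51, edgeR adjusted p = 0.596; exact permutation p = 0.257), and -0.34 without WT library 3. Relative to the simple epithelium list, Gjb1 was lower in every Thra1PV/+ library, at -6.59 ± 0.18, than in any WT library, at -5.62 ± 0.55 (SD, n = 4 each). That log2 difference of -0.97 had an exact permutation p of 0.0286 with the mean of the list and 0.0857 with its median, where it was -0.88. WT library 1, which was low for Gjb1, was also the lowest on this list, at a mean log2 CPM of 7.47 against 7.70 to 8.96 in the other WT libraries.

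Gja1 (ENSMUSG00000050953.10, chr10:56377330-56402513) is the connexin that couples stromal cells during decidualization and muscle cells at labour. It had 106, 147, 183 and 112 CPM in Thra1PV/+ libraries 1 to 4 and 72.3, 88.0, 94.3 and 125 CPM in WT libraries 1 to 4. Only WT library 4 lay within the Thra1PV/+ range, above 2 of those libraries. The log2 fold change was 0.53 (SE 0.23, edgeR adjusted p = 0.515), a fold of 1.44, with an exact permutation p of 0.0857. Its SE was the smallest of the 8 genes, and its libraries spanned 1.73-fold from lowest to highest in Thra1PV/+ and 1.74-fold in WT. Of 14 genes on the endometrial stroma list, 13 had a negative log2 fold change, Pdgfra with -0.89 and Hoxa10 with -2.01 among them, with 0 called by edgeR, 1 by DESeq2 and 1 at an unadjusted p under 0.05. Its mean log2 CPM was 6.38 ± 1.41 in Thra1PV/+ and 7.50 ± 1.04 in WT. Gja1 minus that list was 0.68 ± 1.68 in Thra1PV/+ and -0.96 ± 1.26 in WT, which overlapped (exact permutation test, p = 0.143). Gja1 minus the smooth muscle list was 3.93 ± 1.65 against 0.38 ± 2.36, a log2 difference of 3.55 with no overlap (exact permutation test, p = 0.0286), and 2.38 without WT library 1. That difference contains the list's own, whose mean log2 CPM was 3.13 in Thra1PV/+ and 6.16 in WT. Gja1 was not set against the squamous or simple epithelium lists.

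Gja5 and Gja4 are the connexins of vascular endothelium, Gja5 mostly of arteries. Gja5 (ENSMUSG00000057123.14) is annotated over chr3:96904693-97077416, on the plus strand, and Gpr89 and 2 antisense genes are among those that overlap it on the minus strand. This overlap is of whole gene spans, and overlap of exons was not examined. The libraries were stranded, but whether counting used the strand is not stated. Reads from any overlapping exons may therefore not be told apart. Its CPM were 1.95, 1.48, 1.12 and 2.29 in Thra1PV/+ libraries 1 to 4 and 11.7, 2.65, 3.62 and 2.76 in WT libraries 1 to 4. All Thra1PV/+ libraries lay below all WT libraries, and WT library 1 was far above the other WT libraries. The log2 fold change was -1.59 (SE 0.55, edgeR adjusted p = 0.383), 3.02-fold lower in Thra1PV/+, with an unadjusted p of 0.0193 in that edgeR fit and an exact permutation p of 0.0286. DESeq2 gave -1.57 with an adjusted p of 0.101. Without WT library 1 the log2 fold change was -0.77 (adjusted p = 0.588, edgeR). That library was also the highest on the endothelium list, at a mean log2 CPM of 5.08 against 3.78 to 4.78 in the other WT libraries, besides its smooth muscle level.

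Relative to the endothelium list, Gja5 stood at -3.32 ± 0.64 in Thra1PV/+ and -2.36 ± 0.81 in WT, which overlapped (log2 difference -0.96, exact permutation test, p = 0.114). The 13 endothelial genes themselves had 0 calls with edgeR or DESeq2 and 0 at an unadjusted p under 0.05, with a median log2 fold change of -0.31, and Pecam1 had -0.39 and Cdh5 0.10. The 8 genes beside Gja5 on the arterial list went in both directions, 5 positive and 3 negative, with 0 called by edgeR. Hey1 had a log2 fold change of 0.72 and Efnb2 of 0.10 (adjusted p = 0.762 and 0.954, edgeR). Efnb2 averaged 237 CPM in Thra1PV/+ and 221 CPM in WT, above Pecam1 at 36.4 and 47.6 CPM. Hey1, at 18.5 and 11.2 CPM, was below Pecam1. Bulk libraries do not show whether arteries made these transcripts, so the mixed directions do not describe arteries alone. DESeq2 called 2 of the 8, in opposite directions, which were named after their values were seen. Dll4, a Notch ligand of arterial and tip cells, lay lower in all Thra1PV/+ libraries than in any WT library, like Gja5, with -1.33 in edgeR (adjusted p = 0.171, unadjusted p = 0.00269) and -1.30 in DESeq2 (adjusted p = 0.00918). Unc5b, a netrin receptor, lay higher in all of them, with 1.01 in edgeR (adjusted p = 0.331, unadjusted p = 0.0113) and 1.03 in DESeq2 (adjusted p = 0.0555). Gja4 (ENSMUSG00000050234.7, chr4:127311421-127314039) is found in endothelium and in oocytes. It had 5.73, 2.33, 3.43 and 4.12 CPM in Thra1PV/+ libraries 1 to 4 and 13.2, 5.99, 2.25 and 3.50 CPM in WT libraries 1 to 4, with WT library 1 again the highest. Its log2 fold change was -0.67 (SE 0.56, edgeR adjusted p = 0.763) and 0.04 without WT library 1. Minus the endothelium list it was -2.17 ± 0.17 in Thra1PV/+ and -2.11 ± 0.53 in WT, a log2 difference of -0.06 (exact permutation test, p = 0.886).

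Gjc1 (ENSMUSG00000034520.14, chr11:102799579-102819700) couples smooth muscle and pacemaking cells. It had 21.8, 8.30, 10.1 and 14.1 CPM in Thra1PV/+ libraries 1 to 4 and 68.6, 14.9, 11.0 and 14.8 CPM in WT libraries 1 to 4. WT library 1 alone carried the difference of the means, and the other WT libraries lay within the Thra1PV/+ range. Gjc1 had a log2 fold change of -1.01 (SE 0.62, edgeR adjusted p = 0.660; exact permutation p = 0.400) and 0.04 without WT library 1 (adjusted p = 0.997). DESeq2 gave no adjusted p for this gene. Gjc1 minus the smooth muscle list was 0.54 ± 0.91 in Thra1PV/+ and -1.82 ± 0.97 in WT, a log2 difference of 2.36 with no overlap (exact permutation test, p = 0.0286) and of 1.90 without WT library 1. Both values contain the difference of the list itself, whose mean log2 CPM was 3.13 in Thra1PV/+ and 6.16 in WT. Acta2 and Myh11, the first genes of that list, had log2 fold changes of -4.01 and -4.60 (adjusted p = 0.377 and 0.344, edgeR).

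**Figure D4:**
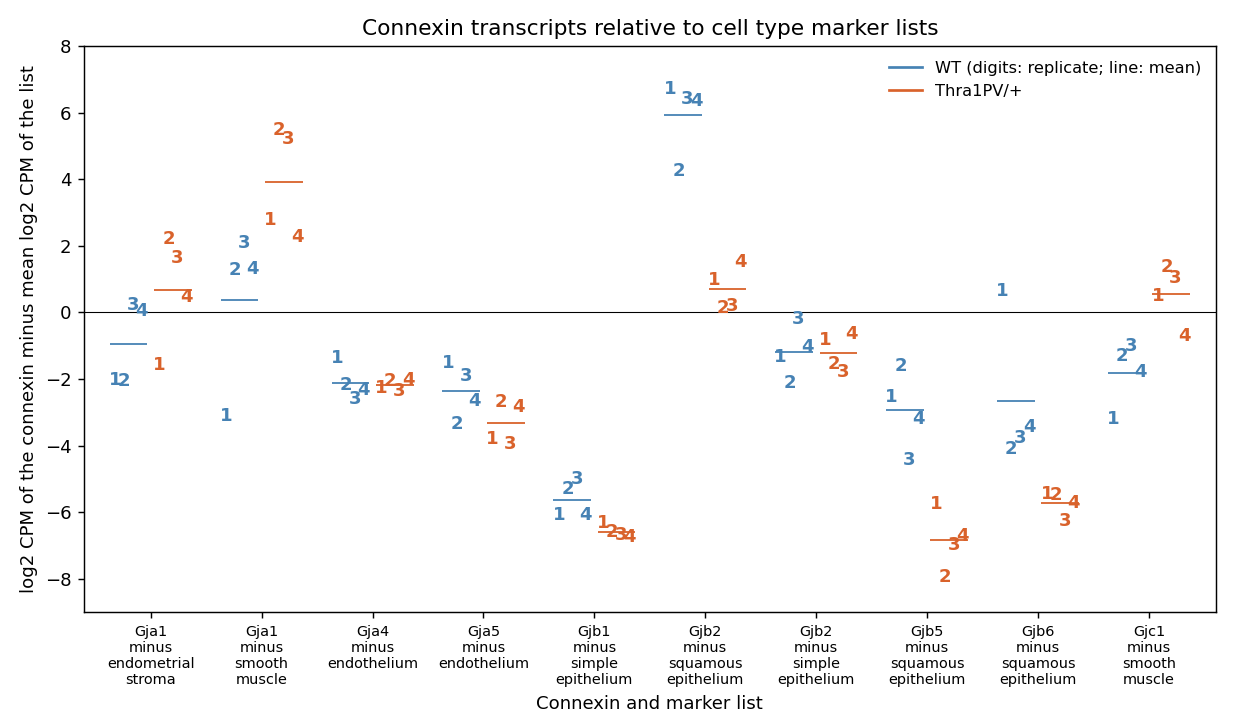
Log2 CPM of a connexin gene minus the mean log2 CPM of the marker list of a cell type it is known from, per library, with WT in blue, Thra1PV/+ in orange, digits for replicate numbers and lines for means. Of 10 differences, 6 show no overlap. Gjb1 lies lower in Thra1PV/+ against simple epithelium, where Gjb2 overlaps. Gjb2, Gjb5 and Gjb6 lie lower against the squamous list, whose own mean is higher in Thra1PV/+. Gja1 and Gjc1 lie higher against smooth muscle, whose own mean is lower in Thra1PV/+.

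The 10 differences between a connexin and a list, pairs chosen with earlier results of these data known, were each tested alone, without adjustment over the 10, and 6 reached the smallest p that the exact permutation test allows. Each such difference contains the genotype difference of the list, which was larger than that of the connexin for the squamous and the smooth muscle lists.

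The remaining connexins showed no call. Of the 12, 5 had enough counts to be tested, 0 were called by edgeR or DESeq2, and 0 had an unadjusted p under 0.05. Their log2 fold changes ran from -0.39 to 0.65, with 2 positive and 3 negative. Of these 5, 1 lay higher in all Thra1PV/+ libraries than in any WT library, against 3.55% of all tested genes. The number lying lower was 0, against 2.49%. Gja3 had a log2 fold change of -0.39 (adjusted p = 0.915) and Gjc3 of -0.13 (adjusted p = 0.968), both from the edgeR fit. The pannexins Panx1 and Panx2, relatives of invertebrate gap junction proteins that form channels to the outside of the cell, had 0.29 and -0.14 (adjusted p = 0.746 and 0.952, edgeR). Of 20 genes for scaffolds, kinases, adhesion proteins and turnover factors of gap junctions, 20 were tested, 0 were called by edgeR or DESeq2, and 0 had an unadjusted p under 0.05, with a median log2 fold change of -0.10. Tjp1, the scaffold that binds the tail of Gja1, had 0.12 (SE 0.15, adjusted p = 0.857), and Cdh1, the epithelial cadherin, had -0.09 (SE 0.35, adjusted p = 0.962), both in edgeR. The 95% interval of Tjp1, from -0.22 to 0.47, lay within a fold change of 2.

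For both members whose genotypes did not overlap, the genes with the most similar pattern were sought by Pearson's r of log2 CPM over the 8 libraries, among 11618 tested genes averaging 2 or more log2 CPM. These values are descriptions, since all genes share the same 8 libraries and the top of so many genes is high by selection. For Gja5 they were Lpp (r = 0.984), a focal adhesion protein, Tusc1 (0.980) and Trpc1 (0.968), a cation channel, and without WT library 1 they were 0.950, 0.924 and 0.950. For Gjb6 they were Eppk1 (r = 0.971), an epithelial cytolinker, Ccdc3 (0.966) and Hspa1a (0.965), a heat shock protein, and without WT library 1 they were 0.972, 0.970 and 0.976. Of these 6 genes, Hspa1a passed the adjusted threshold between genotypes (log2 fold change 1.77, adjusted p = 0.0861, edgeR), and the other 5 had adjusted p-values from 0.205 to 0.703 in the same fit.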

How the data were processed

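The authors trimmed the reads of stranded mRNA libraries with Trimmomatic and quantified them with salmon for mouse genome mm10 (versions and annotation release not given in the sources used here). They deposited estimated counts per gene, not normalized, and a table of TPM values, whose sorted values differed by at most 0.291 TPM between libraries at any rank, the form that quantile normalization gives. 1 column of that table held negative values and was not used.

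The estimated counts were rounded and analysed with edgeR 4.0.16 (R 4.3.3): filterByExpr (minimum count 10, minimum total 15), TMM, and the quasi-likelihood test with genotype as the only term. CPM follow TMM, and log2 CPM used a prior count of 2. A standard error is the log2 fold change over the root of its F statistic. Single values were compared by two-sided exact permutation tests (70 arrangements). The authors used DESeq2, and DESeq2 1.42.0 and limma 3.58.1 served as alternatives. In simulated counts, edgeR recovered 82% of 200 changed genes among 18174, and 7.34% of its calls were unchanged genes. Recovery was 72.6% for simulated log2 changes of 2 and 92.6% for changes of 3, and smaller changes were not simulated. The changed genes were drawn above a floor of expression that Gjb5 and Gjb6 (mean log2 CPM -1.04 and -0.34) did not reach. The 82% is therefore no measure of power for the 8 connexins. Positions are from GENCODE M21. Named genes are the 8 members, other tested connexins and pannexins (some are not reported here), Tjp1, Cdh1, the first 2 genes and up to 2 called genes of each marker list, Thra and the 3 genes most like each member with no overlap. Ciliated epithelium, gland, leukocyte and blood lists are in the closing observations. The members, lists and tests were chosen with earlier results of these data known.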

Additional observations from a re-analysis of the deposited data

Results flagged for a closer look

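Single libraries that stand apart from their genotype were sought by Dixon's test, in which the gap between a library and its neighbour is divided by the range of the 4. Of 36 groups of 4, 5 exceeded the critical value at 95%, where chance gives about 1.8, 1 in 20. Thra1PV/+ library 2 had a log2 CPM of 1.63 for Gjb6, where the other Thra1PV/+ libraries had 0.50 to 0.64. WT library 1 had 6.10 for Gjc1, where the other WT libraries had 3.46 to 3.90. It also had -3.11 for Gja1 minus the smooth muscle list, against 1.26 to 2.09, and 0.64 for Gjb6 minus the squamous list, against -4.10 to -3.44. WT library 2 had 4.25 for Gjb2 minus the squamous list, against 6.36 to 6.72. Of these 5 values, 3 are from WT library 1, the library with the highest smooth muscle level. Causes were not tested.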

How the results depend on the processing

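In 3 of the 19 alternative fits a member was called. The number of members called was 1 with DESeq2, 1 with limma voom and sample quality weights and 1 in the fits without 1 library that left out WT library 1 (range 0 to 1 without 1 library), each time Gjb6, whose log2 fold change was 2.20 with DESeq2 and 2.68 with voom. At an unadjusted p under 0.05 with no fold change threshold, 2 members passed. Over all tested genes the calls numbered 180 in the edgeR fit, 791 with DESeq2, 311 with voom, 81 with at least 10 counts in every library (Gjb5 and Gjb6 could not be fitted there) and 81 to 167 without 1 library.

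With limma on log2(TPM + 1) and log2(TPM + 0.1), the log2 fold change was 0.77 and 1.88 for Gjb6 (adjusted p = 0.338 and 0.294), 0.37 and 1.16 for Gjb5 (0.437 and 0.438) and -0.84 and -1.38 for Gja5 (0.399 and 0.316). A larger pseudocount lowers the fold change of genes with so few TPM. The sign of Gjb2 turned to 0.24 with the replicate block, 0.08 with voom, and 0.29 and 0.30 with limma on log2(TPM + 1) and log2(TPM + 0.1). Without 1 library, log2 fold changes ran from -0.94 to 0.04 for Gja4, from -0.56 to 0.53 for Gjb2, from 1.82 to 3.13 for Gjb6, from -1.29 to 0.04 for Gjc1, from -1.80 to -0.77 for Gja5 and from -1.23 to -0.34 for Gjb1. With the median of the list, Gjb1 minus simple epithelium was -0.88 (exact permutation p = 0.0857), and Gjb2 minus simple epithelium turned to 0.05. Without 1 library, Gja4 minus endothelium ran from -0.22 to 0.19 and Gjb2 minus simple epithelium from -0.35 to 0.29. The causes were not tested.

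Replicate numbers shared by the genotypes did not pair the libraries: the correlations of same-numbered libraries were 0.269, -0.436, 0.340 and -0.159, and with the replicate block 82 genes were called. Levels of Gjb5 and Gjb6 rest on as few as 4 and 6 counts in a library, which limits their precision.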

Other observations

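Of marker lists for other cell types in the sections, 1 of 7 tested ciliated genes was called by edgeR, Foxj1, the regulator of motile cilia, which fell by 2.54 on the log2 scale (adjusted p = 0.00723), and Tekt1 had a log2 fold change of -1.34 (adjusted p = 0.670). The gland genes Foxa2 and Cxcl15 had 0.27 and -0.69, with 0 of 6 called (1 at an unadjusted p under 0.05, 0 by DESeq2). The leukocyte genes Ptprc and Cd3e had 0.50 and 1.73, with 0 of 10 called by edgeR (4 at an unadjusted p under 0.05, 2 by DESeq2). The 5 globin and heme genes had a median of -1.78, with -1.81 for Hbb-bs and -1.78 for Hbb-bt, with 0 called by edgeR or DESeq2 and 2 at an unadjusted p under 0.05, and WT library 1 had the highest mean log2 CPM on that list, 4.41 against 1.33 to 3.05 in the other WT libraries.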
